A study of Mus musculus with 6 samples.

Results

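The expression of 9 transcription factor genes was examined in cultured mouse macrophages: Spi1, Cebpa, Cebpb, Cebpd, Maf, Myc, Egr2, Runx1 and Ets2. They were chosen by name, as regulators of macrophage identity, with earlier results of these data known. Matched through their Ensembl identifiers, they are 9 of the 54446 genes counted. All 9 were found, and all had at least 10 counts in a library. The cells were bone marrow-derived macrophages (BMDMs), grown for 7 days in 20% L929-conditioned medium from marrow of male BALB/c mice aged 6 to 8 weeks. L929 medium carries CSF-1, the growth factor that turns marrow progenitors into macrophages. M0 cells were left unpolarized, M1 cells received IFN-γ at 20 ng/mL with LPS at 50 ng/mL, and M2 cells received IL4 at 20 ng/mL, the polarization lasting 24 hours. Each state was sequenced as a control (DMSO, per the treatment text) and with regorafenib, a multikinase inhibitor used against liver and colorectal cancer. The methods give 1 µM of the drug from 1 hour before polarization. The time of exposure of the M0 cells is not given in the sources used here. No transgene or deletion was involved, and the number of animals behind each library is not given.

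There was 1 library per condition, 6 in all, so no difference between 2 libraries has a replicate check. The libraries held 25359309 to 34898342 counts, and the 10 most abundant genes took 9.762% to 14.39% of a library. Levels are given as CPM, counts scaled to a common library size, after TMM scaling (trimmed mean of M-values), which lines libraries up on the bulk of their genes. Ratios between libraries are on the log2 scale with a 95% interval from the read counts, which covers counting error only. A gene was called in a pair of libraries when its ratio reached 2-fold and its interval excluded 0. Such a call describes the libraries and not the conditions. All 8 macrophage markers were measured, with a summed level of 21600 to 48230 CPM that was mostly Lyz2 (16710 to 42740 CPM), while Aif1 was low (1.096 to 6.917 CPM). None of 6 lymphocyte markers reached 10 counts (summed level 0.0 to 0.1072 CPM). Of 8 neutrophil and progenitor markers 2 were measured, with a sum of 80.77 to 155.6 CPM that was mostly Mpo (2064 to 5124 counts), while Elane, Prtn3, Ctsg, Ly6g, Ngp and Ltf had 3 or fewer counts everywhere. Dendritic cell markers summed to 0.3034 to 38.84 CPM. The high values were in M1 and were mostly Ccr7 (30.19 and 34.31 CPM), while Flt3, Clec9a and Siglech had 3 or fewer counts everywhere. Mast cell markers summed to 0.05478 to 4.44 CPM, all of it Kit. Fibroblast markers summed to 3.19 CPM in the M0 control and 10.19 CPM with regorafenib in M0. Their part in the results below was not tested.

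PU.1, the product of Spi1, is an ETS factor that opens the regulatory regions of myeloid genes and is needed for macrophages to form. C/EBPα works with it in progenitors, while C/EBPβ and C/EBPδ are made in response to inflammatory stimuli, and all of them belong to the same bZIP family. RUNX1 acts early in blood development. MAF holds macrophages out of the cell cycle and drives resident macrophage genes, whereas MYC drives growth, ribosome production and division and is induced by CSF-1. EGR2 is a zinc finger factor induced by IL4, and ETS2 is a target of the Ras and ERK pathway downstream of the CSF-1 receptor.

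Spi1 and Runx1 kept nearly the same level in all 6 libraries, while the other genes moved with state, drug or both. In the order M0 control, M0 regorafenib, M1 control, M1 regorafenib, M2 control and M2 regorafenib, Spi1 stood at 257.1, 289.4, 270.7, 264.8, 309.1 and 286.3 CPM. Its highest library, the M2 control, was 1.202 times its lowest. In the same order Runx1 stood at 67.75, 67.41, 73.27, 76.47, 59.99 and 61.45 CPM. Within each state the Runx1 levels with and without the drug were inside counting error, and M1 lay above M0, which lay above M2, an order of M1 that total-count scaling turned (M1 against M0 0.11 to −0.33, M1 against M2 0.29 to −0.06). For Spi1 the M1 libraries did not differ from each other beyond counting error, nor did M1 with regorafenib from the M0 control or the 2 regorafenib libraries of M0 and M2. No ratio of either gene reached 2-fold in any of the 8 comparisons.

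**Figure D1:**
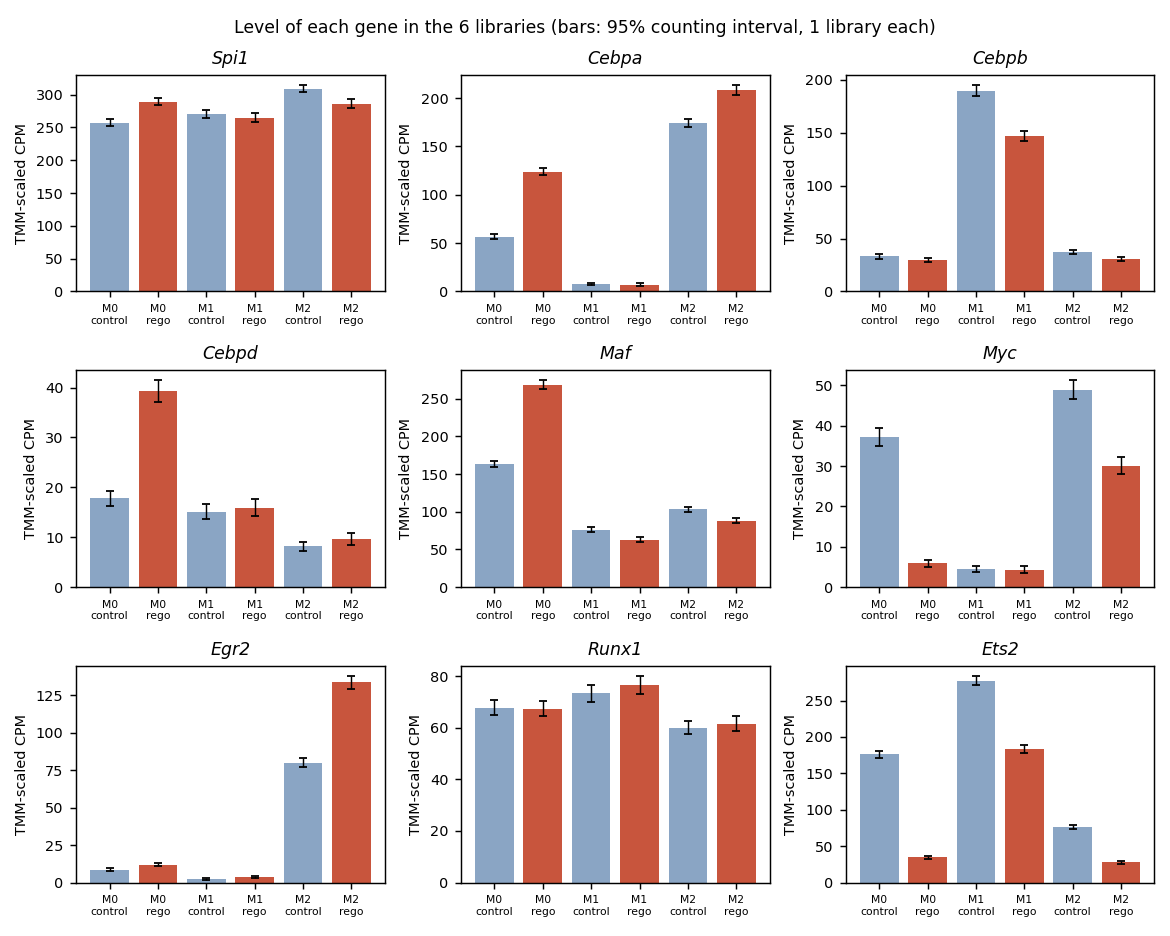
TMM-scaled CPM of each gene in the 6 libraries, 1 library per bar, blue for control and red for regorafenib (rego). Error bars are 95% counting intervals. Spi1 and Runx1 are nearly level, Cebpb is high in both M1 libraries, Egr2 in both M2 libraries, and Myc and Ets2 are lower with regorafenib in M0.

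Compared per kilobase of exon, Spi1 was the most abundant of the 9 transcripts in both M0 and both M2 libraries, at 95.39 to 114.7 CPM per kb. In the M1 control Cebpb passed it, at 126.2 against 100.4 CPM per kb, and in M1 with regorafenib the 97.69 of Cebpb and the 98.27 of Spi1 were inside counting error. The gene that came next after Spi1 differed by library. It was Ets2 in the M0 control (30.5 CPM per kb) and Cebpa in M0 with regorafenib (47.02 CPM per kb), in the M2 control (66.09) and in M2 with regorafenib (78.98). Egr2 was lowest in the M0 control (2.52 CPM per kb) and in the M1 control (0.6834), but in M2 with regorafenib it ranked behind only Spi1 and Cebpa, at 39.25 CPM per kb.

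**Figure D2:**
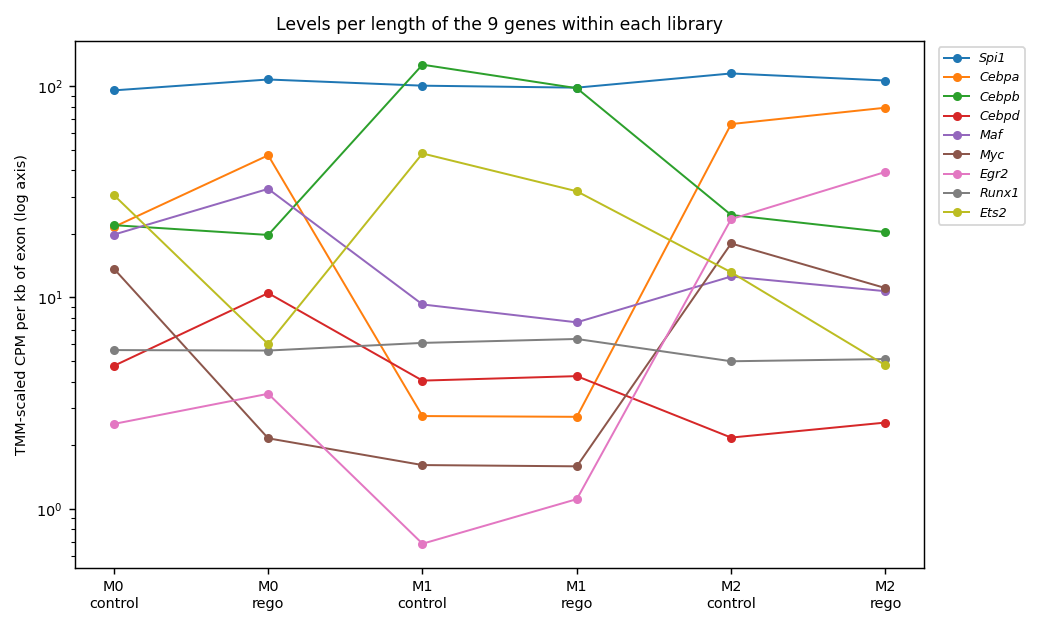
Levels of the 9 genes per kilobase of exon (TMM-scaled CPM per kb, log axis) in each library, with a line joining the values of 1 gene. Spi1 is at the top in the M0 and M2 libraries, Cebpb stands above it in the M1 control at 126.2 and is inside counting error of it in M1 with regorafenib, and Egr2 goes from 0.6834 in the M1 control to 39.25 in M2 with regorafenib.

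On GRCm38, Spi1 lies on chromosome 2 (91082390 to 91115756), as does Cebpb (167688915 to 167690418). Cebpa lies on chromosome 7 (35119293 to 35121928), Myc on chromosome 15 (61985391 to 61990374) and Egr2 on chromosome 10 (67535475 to 67542188). Cebpd (15887286 to 15891031), Runx1 (92601466 to 92826149) and Ets2 (95702075 to 95721051) share chromosome 16, and Maf lies on chromosome 8 (115682942 to 115707794). All are protein-coding. Maf and Runx1 are on the minus strand and the rest on the plus strand. No 100-base word of their transcripts occurs in another gene (0.0% for each). Cebpb shares 312 exonic bases, 20.74% of its exon length, with Tmem189 on the opposite strand, which had 4534 to 9148 counts, and Cebpd shares 562 bases (15.0%) with Spidr on the opposite strand. The libraries were stranded, but the strand column that was counted is not given in the sources used here, so the values of Cebpb and Cebpd are uncertain to that extent.

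The first question was how the 9 genes differed between the polarized states. In M1 the C/EBP genes parted ways: Cebpb was higher than in M0 and Cebpa far lower. Cebpb counted 1015 reads in the M0 control, 979 in M0 with regorafenib, 4904 and 3541 for M1 and 1348 and 857 for M2 (control first in each pair), which is 33.04, 29.7, 189.8, 146.9, 36.92 and 30.64 CPM. Both M1 libraries stood above the other 4. The log2 ratio of M1 to M0 was 2.52 [2.42, 2.62] without the drug, a 5.744-fold difference, and 2.31 [2.2, 2.41] under regorafenib. An additive model of state and treatment was fitted over all 6 libraries (edgeR quasi-likelihood test). In it Cebpb rose in M1 by 2.47 ± 0.16 (log2, with an SE worked back from the test statistic, edgeR adjusted p = 0.000538). Here 5174 of 14110 genes passed, 36.7% (18.5% rose and 18.2% fell), so a gene past this threshold is common.

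Cebpa ran the other way, with 1744 and 4086 reads for M0, 187 and 173 for M1 and 6360 and 5824 for M2, or 56.77, 124.0, 7.238, 7.178, 174.2 and 208.2 CPM. The 3 states did not overlap: M1 was lowest, M0 intermediate and M2 highest. Without the drug, M1 was 7.844-fold below M0 (−2.97 [−3.2, −2.75]), M2 was 3.068-fold above M0 (1.62 [1.54, 1.69]) and M1 was 24.07-fold below M2. The edgeR test called the drop in M1 (−3.5 ± 0.32, adjusted p = 0.00116). It did not call the difference of M2 from M0 (1.16 ± 0.29, adjusted p = 0.24), which DESeq2 and edgeR without a filter on low counts or without the M0 regorafenib library (1.69) did.

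Egr2 was highest in the cells given IL4. It counted 263 and 392 reads for M0, 60 and 91 for M1 and 2912 and 3731 for M2, or 8.562, 11.89, 2.322, 3.776, 79.76 and 133.4 CPM. M2 stood far above and M1 below M0, with no overlap between states. M2 was 9.316-fold above M0 without the drug (3.22 [3.04, 3.41]) and 11.22-fold above it under regorafenib (3.49 [3.34, 3.64]), and M1 was 34.35-fold below M2 without the drug. In the additive model Egr2 rose in M2 by 3.36 ± 0.19 (edgeR adjusted p = 0.0091), and it was the only one of the 9 to pass that test, in which 28 of 14110 genes passed (0.198%, of which 0.184% rose and 0.0142% fell). In M1 it fell by 1.71 ± 0.19 on the log2 scale (edgeR adjusted p = 0.00201).

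The start regions of these 3 genes are shown because of their differences between states; Myc, which differed as widely, had no window in the table used. The sequences are from RefSeq on GRCm38.p6, plus strand, and hold the 250 bases before the start given there. Of the 9 genes, 5 had a window in that table: Cebpa, Cebpb, Egr2, Runx1 and Ets2. Egr2 has 5 windows, of which the one at the start of its principal transcript is printed. Capitals mark matches to the motifs listed after the sequences, on either strand.
Cebpa, chr7:35119043-35119292: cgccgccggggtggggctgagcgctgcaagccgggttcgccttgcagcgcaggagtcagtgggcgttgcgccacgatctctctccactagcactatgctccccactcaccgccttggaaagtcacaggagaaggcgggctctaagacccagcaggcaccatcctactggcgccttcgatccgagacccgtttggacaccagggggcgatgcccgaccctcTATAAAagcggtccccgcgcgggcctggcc
Cebpb, chr2:167688665-167688914: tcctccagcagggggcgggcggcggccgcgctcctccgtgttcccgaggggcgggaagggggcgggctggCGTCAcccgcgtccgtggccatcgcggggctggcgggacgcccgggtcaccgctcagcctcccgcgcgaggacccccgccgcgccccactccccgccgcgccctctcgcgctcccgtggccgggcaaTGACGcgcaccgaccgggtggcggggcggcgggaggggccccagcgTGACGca
Egr2, chr10:67537619-67537868: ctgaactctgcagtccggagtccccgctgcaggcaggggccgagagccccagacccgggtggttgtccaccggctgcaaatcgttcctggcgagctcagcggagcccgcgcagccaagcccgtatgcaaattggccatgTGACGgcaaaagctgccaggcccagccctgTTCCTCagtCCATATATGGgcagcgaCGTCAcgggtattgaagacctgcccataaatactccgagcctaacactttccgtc

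In all, 10 motifs were searched on both strands: the C/EBP palindrome TTGCGCAA (in 0.164% of the 32851 promoters of the table), the cyclic AMP response element TGACGTCA (1.55%), its core TGACG (17.8%), the E-box CACGTG (6.02%), the EGR site GCGTGGGCG (0.536%), a RUNX site TGTGGT (14.0%), an ETS core CCGGAAG (6.91%), a PU.1 core GAGGAA (23.3%), the CArG box (1.47%) and a TATA box TATAAA (12.4%). The full response element contains this core. Counting back from the start as −1, the Cebpa window held the TATA box at −30 to −25. The Cebpb window, 81.6% G and C, held the TGACG core 3 times, at −180 to −176 on the minus strand and at −53 to −49 and −7 to −3 on the plus strand. The Egr2 window held the CArG box, the site of serum response factor, at −72 to −63. Upstream of it, at −81 to −76, lay the PU.1 core on the minus strand, and TGACG lay at −111 to −107 and, on the minus strand, at −55 to −51. The Runx1 window held an E-box at −71 to −66 and the Ets2 window TGACG at −32 to −28 on the minus strand. The RefSeq starts of these windows lie 75 and 332 bases from the start of the Gencode principal transcript, and the Ets2 and Egr2 windows lie within the gene spans given above, as does part of the Runx1 window. A match describes letters and not binding.

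Maf, Cebpd, Myc and Ets2 also differed between states. Maf, with 163.4 and 268.8 CPM in M0, 76.32 and 62.82 for M1 and 103.5 and 88.19 for M2, was highest in M0 and lowest in M1 with and without the drug. The log2 ratio of M1 to M0 was −1.1 without the drug and −2.1 under it, and the edgeR test called the drop (−1.56 ± 0.28, adjusted p = 0.00905). Its difference of M2 from M0 did not pass (−1.15 ± 0.28, edgeR adjusted p = 0.231). Cebpd had few reads, 546 and 1294 for M0, 391 and 383 for M1 and 297 and 268 for M2, or 17.77, 39.25, 15.13, 15.89, 8.135 and 9.58 CPM. Its M2 libraries were the lowest, −1.13 from M0 without the drug and −2.03 under it, but neither state passed the edgeR test (adjusted p = 0.117 for M1 and 0.14 for M2). Without the M0 control library the edgeR fit called Cebpd in M1 (−1.2) and in M2 (−2.06), and in M2 also Maf (−1.6) and Myc (2.54).

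Myc stood at 37.18 and 5.855 CPM in M0, 4.374 and 4.315 in M1, with 48.92 and 30.06 in M2. The M1 libraries and the M0 library with regorafenib were low, and the remaining 3 were high. So the M1 to M0 ratio of these single libraries differed with the drug, at −3.09 [−3.38, −2.81] without it (8.5-fold) and −0.44 [−0.8, −0.09] with it. The additive model did not call Myc in M1 (−1.84 ± 0.64, edgeR adjusted p = 0.0726). DESeq2 did, and so did edgeR without a filter on low counts and without the M0 regorafenib library (−2.84), the M1 regorafenib library (−2.63), either M2 library or both. Ets2 stood at 176.3 and 34.76 CPM in M0, 277.4 and 183.7 for M1 and 75.98 and 27.6 for M2, with the M1 control on top. It rose in M1 by 1.58 ± 0.41 (edgeR adjusted p = 0.0298). That call was lost without the M0 regorafenib library (0.93) and without the M1 regorafenib library (0.91). Without the drug the M1 level was 0.65 [0.6, 0.7] above M0, short of 2-fold (0.21 by total counts).

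**Figure D3:**
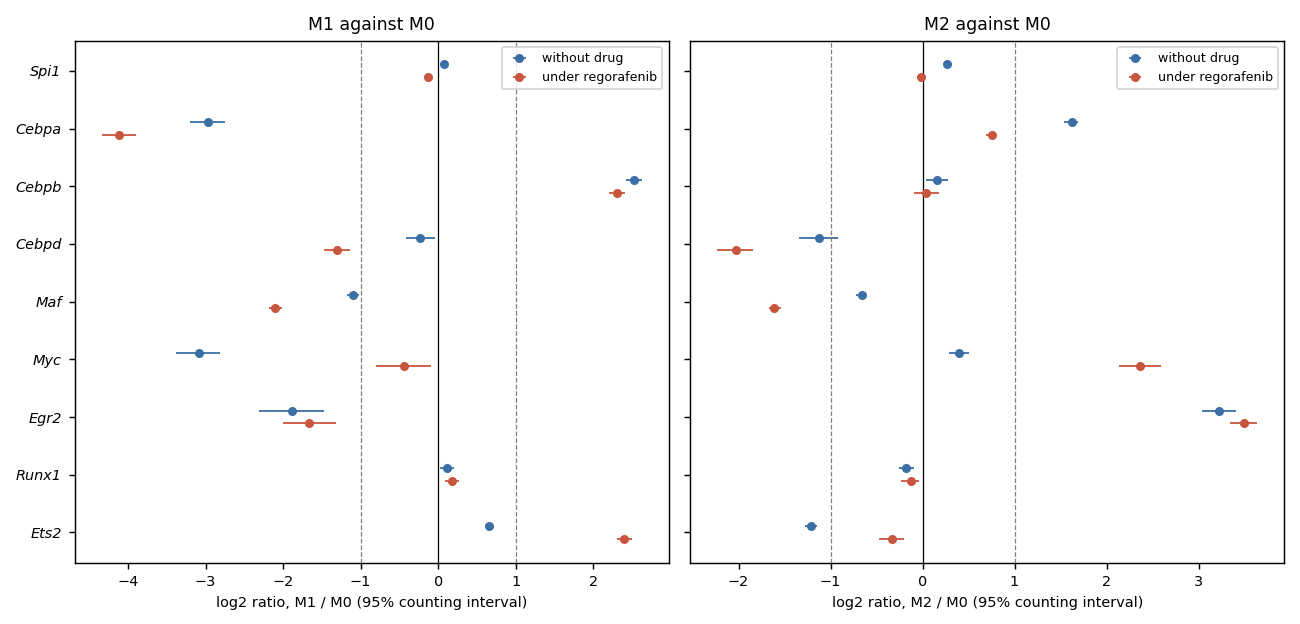
Log2 ratio of M1 to M0 (left) and of M2 to M0 (right) for each gene, without the drug (blue) and under regorafenib (red), with 95% counting intervals; dashed lines mark 2-fold. Cebpb is high and Cebpa low in M1 with both treatments, Egr2 is high in M2 with both, and the Myc ratio in M1 goes from −3.09 to −0.44.

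By the 2-fold rule, 1 of the 9 genes was higher and 4 were lower in M1 than in M0 without the drug, with a median of −0.23. The call of Maf was lost with upper-quartile scaling (−0.96). Of all 14917 genes tested, 34.1% were called there, 16.1% higher and 18.0% lower, with a median of −0.05. In M2, 2 of 9 were higher (Egr2 and Cebpa) and 2 lower (Ets2 and Cebpd), against 10.2% of all genes called, 3.55% higher and 6.64% lower. Between M1 and M2 the counts were 2 higher and 3 lower, against 34.9% (16.8% higher and 18.2% lower). Under regorafenib, 2 were higher and 4 lower in M1 than in M0 (background 34.7%, 15.4% higher and 19.4% lower), and 2 were higher and 2 lower in M2 than in M0 (7.58%, 3.76% higher and 3.81% lower). Scaling by total counts moved the median of all genes from −0.05 to −0.49 for M1 against M0 and from −0.06 to −0.41 for M1 against M2. With it, the M1 against M0 ratio of Spi1 went from 0.07 to −0.37 and that of Runx1 from 0.11 to −0.33, so neither has a settled direction in M1.

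The second question was how these genes differed with regorafenib in each state. M0 held most of the 2-fold differences, with Myc and Ets2 lower and Cebpa and Cebpd higher. In M2 only Ets2 reached 2-fold, and in M1 none did. The counts were thus 2 higher and 2 lower in M0, where 17.4% of all genes were called (7.81% higher and 9.59% lower), 0 of 9 in M1 (background 3.47%, 1.17% higher and 2.3% lower) and 1 lower in M2 (background 8.86%, 5.03% higher and 3.83% lower). The medians of the 9 ratios were 0.17, −0.02 and −0.11, and those of all genes tested −0.01, −0.02 and −0.01.

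Myc counted 1142 reads without and 193 with the drug in M0, 113 and 104 in M1, then 1786 and 841 in M2. Its log2 ratio was −2.67 [−2.89, −2.45] in M0, 6.35-fold lower, −0.02 [−0.42, 0.38] in M1 and −0.7 [−0.82, −0.58] in M2. In M1 the level was low without the drug. The M0 ratio minus the M1 ratio was −2.65 [−3.09, −2.2], and minus the M2 ratio −1.96 [−2.21, −1.71], so the M0 ratio was the lower beyond counting error.

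Ets2 counted 5416 reads in the M0 control and 1146 with the drug, 7166 and 4427 in the M1 pair, and 2774 and 772 in the M2 pair. It was lower with the drug in every state, with ratios of −2.34 [−2.44, −2.25] in M0 (5.072-fold), −0.59 [−0.65, −0.54] in M1 and −1.46 [−1.58, −1.35] in M2 (2.753-fold). The ratios differed between all pairs of states beyond counting error. Egr2, by contrast, was higher with the drug in all 3 states, by 0.47 [0.24, 0.7], 0.7 [0.22, 1.2] and 0.74 [0.67, 0.81], short of 2-fold in each. Its M0 and M1 ratios differed by −0.23 [−0.75, 0.29], which is inside counting error, as is the difference of M2 and M1 (0.04 [−0.43, 0.52]). The M0 ratio was below the M2 ratio beyond counting error (−0.27 [−0.5, −0.03]). The M1 value rests on 60 and 91 reads.

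Cebpa and Cebpd were both higher with regorafenib in M0, where Cebpa had 1744 reads without and 4086 with the drug, and Cebpd 546 and 1294. The ratios were 1.13 [1.05, 1.21] and 1.14 [1.0, 1.29]. In M1 the ratios of both were inside counting error (−0.01 [−0.32, 0.29] and 0.07 [−0.14, 0.28]), and in M2 Cebpa was 0.26 [0.21, 0.31] and Cebpd 0.24 [−0.01, 0.48]. Cebpb did not follow them. Its ratios were −0.15 [−0.28, −0.03] in M0, −0.37 [−0.43, −0.31] in M1 and −0.27 [−0.39, −0.14] in M2, each below 0 and each under 2-fold.

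The sign of the Maf ratio depended on the state. It counted 5018 and 8862 reads in M0, 1972 and 1514 for M1 and 3780 and 2467 for M2, control first. It was higher with the drug in M0 (0.72 [0.67, 0.77]) and lower in M1 (−0.28 [−0.38, −0.18]) and M2 (−0.23 [−0.31, −0.16]), none of them 2-fold. The M0 ratio exceeded that in M1 by 1.0 [0.89, 1.11]. The Spi1 ratio also changed sign, at 0.17 [0.13, 0.21], −0.03 [−0.08, 0.02] and −0.11 [−0.15, −0.07] for M0, M1 and M2, and the Runx1 ratios were −0.01 [−0.09, 0.08], 0.06 [−0.03, 0.16] and 0.03 [−0.06, 0.13].

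**Figure D4:**
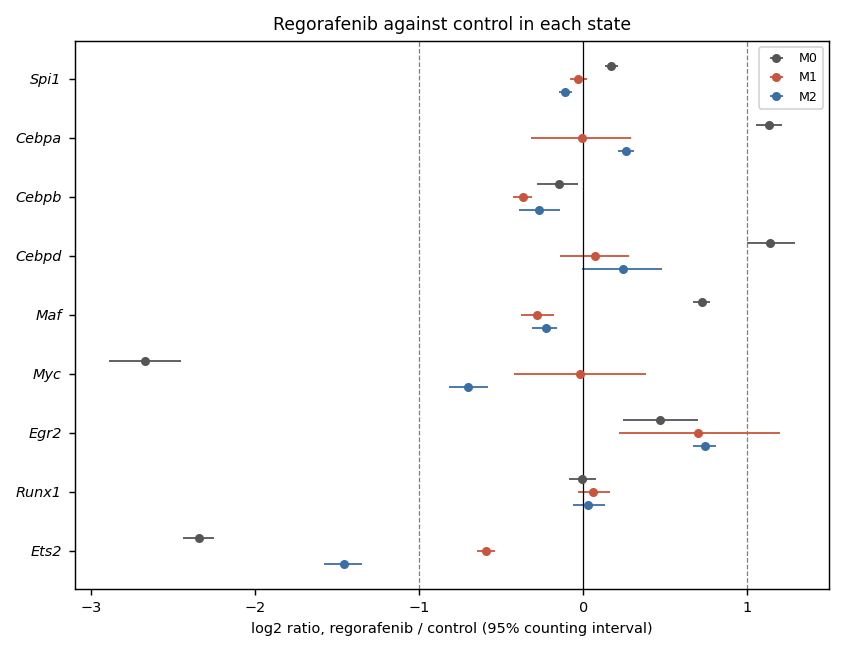
Log2 ratio of regorafenib to control for each gene in M0 (grey), M1 (red) and M2 (blue), with 95% counting intervals; dashed lines mark 2-fold. Myc and Ets2 lie furthest to the left in M0 (−2.67 and −2.34), Egr2 is right of 0 in each state, and Runx1 sits at 0.

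The additive model also asked for a drug effect shared by the 3 states, where each state gives 1 pair of libraries and 2 residual degrees of freedom remain. None of the 9 genes passed, nor did any of the 14110 genes tested with edgeR (0.0% called), of which 1637 had an unadjusted p under 0.05. DESeq2 called 296 genes. Egr2 (0.65 ± 0.15) and Ets2 (−1.45 ± 0.33) came closest, with edgeR adjusted p = 0.315 and 0.318. Ets2 was called by DESeq2 (−1.46), by edgeR without a filter on low counts (−1.46) and without the M1 pair (−1.88), where 386 genes passed, as it was without the M1 control (726 genes) or M1 regorafenib (814 genes) alone. The estimates for Myc (−1.12 ± 0.51), Cebpa (0.49 ± 0.24), Cebpd (0.5 ± 0.25) and Cebpb (−0.25 ± 0.12) had edgeR adjusted p between 0.448 and 0.453. Those for Maf and Spi1 changed sign without the M0 pair.

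Relatives of these genes were read in the same way, from lists of family members and commonly cited targets, also chosen with earlier results known. The MYC targets are genes of growth and ribosome production. In the M0 pair 13 of 24 were lower with regorafenib and 0 higher, with a median of −1.08, where 9.59% of all genes were lower and the median was −0.01. In M2, 3 of 24 were lower (median −0.67, background 3.83%), and in M1 none was called (median 0.2). Nme1, a nucleoside diphosphate kinase, had 673 reads without and 187 with the drug in M0 and 869 and 275 in M2 (−1.95 and −1.28). Srm, spermidine synthase, was −1.73 in M0 and −1.2 in M2, and Odc1, the ornithine decarboxylase that feeds it, −1.7 in M0. Nop58, a ribosomal RNA processing protein, was −1.64 in M0. No gene of the list passed the edgeR test of a change common to the 3 states.

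Cycling markers moved with Myc in M0. All 8 of 8 were lower with regorafenib there (median −1.95), where 9.59% of all genes were lower. None was called in M1 or M2 (background 3.47% and 8.86%). Summed levels of the cycling markers were 1631, 414.3, 85.81, 126.6, 615.3 and 622.5 CPM in the order of the libraries. Both M1 libraries were low in cycling markers and in Myc. In the M2 control all 8 cycling markers were lower than in the M0 control (median −1.27, background 6.64%), while Myc was higher (0.4 [0.29, 0.5]). In M2 with the drug the cycling sum was as high as in the control (median ratio −0.02) although Myc was lower. Fewer dividing cells and less RNA per cell cannot be told apart in these bulk libraries. Mxd4 and Mxi1 are antagonists of MYC that compete for the partner MAX. Of 11 measured genes of the MYC network, only these were higher with the drug in M0 (background 7.81%). Mxd4 had 988 and 5284 reads there (2.32) and 2583 and 4130 in M2 (1.06), and Mxi1 was 1.13 in M0. Mxd3, which is made in dividing cells, was −1.94 in M0, and Max itself was 0.11.

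Among the ETS family, 14 of 15 genes were measured, and with regorafenib in M0 1 was lower and 1, at 28 reads or fewer, higher. The shares of all genes called were 17.4% for M0, 3.47% for M1 and 8.86% for M2, against which the counts of these small families stand. The lower ETS gene was Etv5, another ERK-responsive factor, with 1994 reads without and 444 with the drug in M0 and 1721 and 666 in M2, ratios of −2.27 and −0.99. In M1 its ratio was −0.04. Ets1 was −1.63 in M1, with 530 reads without and 160 with the drug, and in M2 1 gene of low counts was higher. Of the RUNX family, Runx3 was −2.37 in M0 (260 and 54 reads) and not called elsewhere, and of 4 measured EGR and NAB genes none was called in any state. Of 8 MAF and BACH genes, none was called in M0, 1 was lower in M1 and 1 higher in M2. Of 14 other macrophage regulators measured, Rxra, a nuclear receptor, was higher in M0 (1.16) and Bhlhe41 lower in M1 (−1.05), and 1 more was higher in M1 (Gfi1, 22 reads or fewer) and 1 lower in M2 (Gata6, 85 and 6 reads). The 4 remaining C/EBP genes had 1 call in each state, lower and in a gene of low counts, Cebpe.

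The target lists of PU.1, C/EBP and MAF had calls in both directions with the drug. Of 14 PU.1 targets, 1 was higher and 3 were lower in M0, 1 was lower in M1, and 1 was higher and 2 were lower in M2. Of all genes, 7.81% were higher and 9.59% lower for M0, 1.17% and 2.3% for M1, and 5.03% and 3.83% for M2. Csf3r, the G-CSF receptor, which is also on the C/EBP list, had 213 reads without and 2120 with the drug in M0 (3.21) and 323 and 1822 in M2 (2.88). Fcgr1, the high-affinity IgG receptor, was lower in all 3 states (−1.48, −1.23 and −1.25). The scavenger receptor Msr1 was −1.77 in M0 and −1.55 in M2, and Cd14, the LPS co-receptor, −1.04 in M0. Of 14 C/EBP targets, 4 were higher and 3 lower in M0, 2 were lower in M1, and 3 were higher and 2 lower in M2, to be read against the same shares. The acute-phase gene Hp, haptoglobin, was 4.41 in M0 (16 and 365 reads) and −2.08 in M1, and the complement gene C3 was 1.07 in M0 and 2.56 in M2.

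Of 10 MAF targets, 2 were higher and 2 lower in M0, 1 was lower in M1 and 3 were lower in M2, where 9.59%, 2.3% and 3.83% of all genes were lower and 7.81% were higher in M0. Il10, an anti-inflammatory cytokine, was lower in each state (−2.69, −2.27 and −2.22), the M1 value from 497 and 96 reads and the others from 67 reads or fewer. Gas6, a ligand that helps clear dying cells, was 1.05 in M0. Folr2, a folate receptor of resident macrophages, was −1.48 in M0 and −1.27 in M2, and Stab1 −1.29 in M2. Between states without the drug, 7 of the 10 were lower in M1 than in M0 and 1 was higher (median −1.77), beside the lower Maf there. Of all genes, 18.0% were lower and 16.1% higher in that comparison. In M2 against M0 without the drug Maf was also lower (−0.66, not called), but 2 of the 10 were higher and 0 lower. There 3.55% of all genes were higher and 6.64% lower. Of the C/EBP targets 13 of 14 were higher in M1 than in M0 (median 8.66, background 16.1%), beside higher Cebpb and lower Cebpa. With edgeR, 12 of 14 C/EBP targets rose in M1, and 5 of 9 MAF targets fitted fell and 1 rose, with 18.5% of all genes rising and 18.2% falling.

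**Figure D5:**
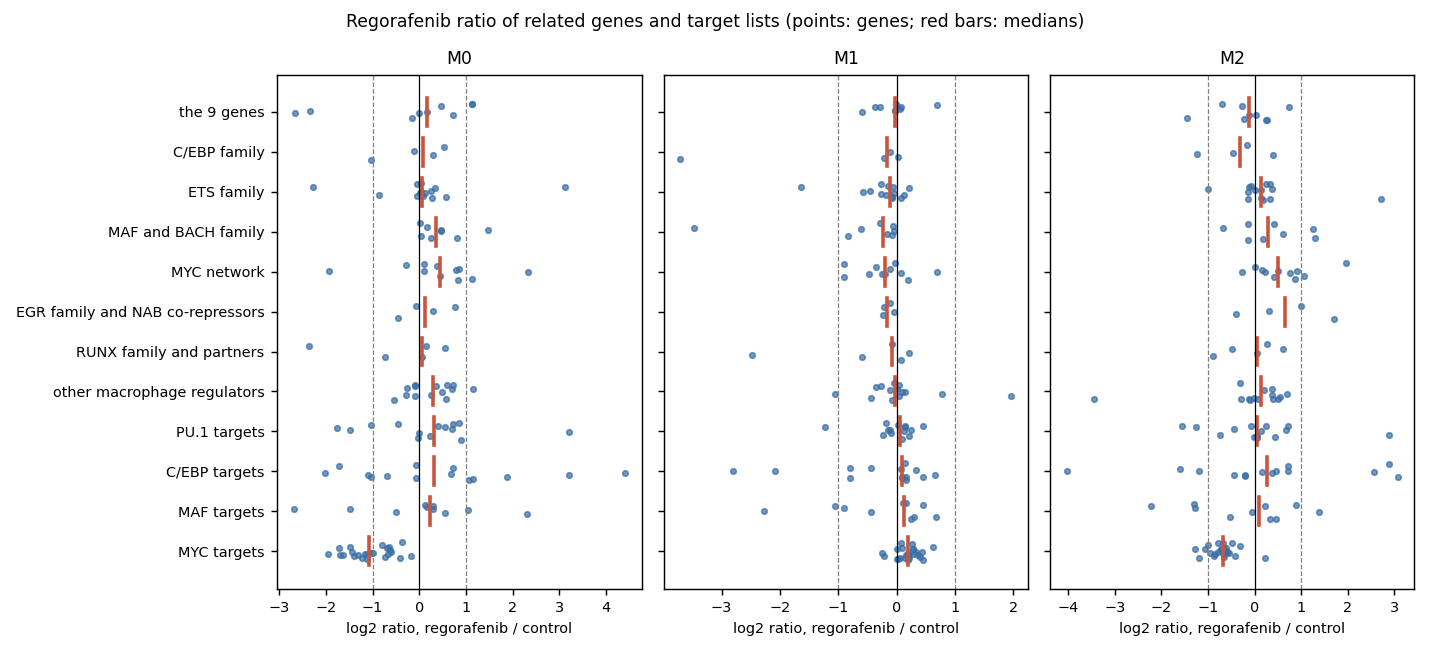
Log2 ratio of regorafenib to control in M0, M1 and M2 (panels) for the genes of each list, 1 point per gene, with a red bar at the median; dashed lines mark 2-fold. The MYC targets lie to the left in M0 (median −1.08) and in M2 (−0.67), and around 0.2 in M1.

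The genes whose levels most closely followed those of the 9 over the 6 libraries were sought among 11308 genes that reached 100 counts somewhere, as the smallest root mean square difference of centred log2 CPM. For Egr2 the nearest was Irf4, another IL4-responsive factor, at 0.3513, against a spread of Egr2 itself of 2.149. For Myc it was Lpl, lipoprotein lipase, at 0.3298 (own spread 1.512), and for Cebpa it was Ephx1, an epoxide hydrolase, at 0.2716, followed by Fabp4, a fatty acid binding protein, at 0.3004 (own spread 2.034). For Maf it was Rwdd2a at 0.2307 (own spread 0.7101), for Cebpb Jmjd6 at 0.1184 (1.123) and for Cebpd Disc1 at 0.2802 (0.7285). Spi1 and Runx1 varied so little (0.08898 and 0.125) that many flat genes lie near them, Tor2a and Lsm1 nearest. The 6 points share libraries and scaling, and the likeness is a description.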

How the data were processed

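RNA of 6 BMDM conditions was sequenced with a stranded mRNA kit, paired reads. Per their methods, the authors trimmed reads with cutadapt 2.4, mapped them to GRCm38 with STAR 2.7.2a and counted them per gene on Gencode M19. The deposited values are whole-number counts, not normalized. No column belonged to no sample. Of 54446 gene IDs, 53229 matched Gencode M21 with version and 1180 without, and 37 had no name. Counts were scaled with TMM over the 6 libraries (edgeR 4.0.16, R 4.3.3, factors 0.8203 to 1.124). Ratios used Python 3.11.15 and scipy 1.17.1, with a count of 0 set to 0.5 and conditional exact binomial intervals. A floor of 3 counts served only an alternative median of each list and the tally of genes at 3 or fewer counts. Called genes came from the 14917 with at least 10 counts in a library. The authors' no-replicate mode of NOISeq was not used, since its noise comes from simulated replicates. edgeR's quasi-likelihood test used state and treatment as additive terms, filterByExpr and Benjamini-Hochberg adjustment at 0.05, with how far the states differ in drug response as the residual; DESeq2 1.42.0 was the alternative. The SE printed with an edgeR change is its absolute log2 size divided by the square root of the F statistic of the test. Scripts were tested on simulated data. PCR reads carry no molecular identifiers, so intervals cover counting error only, and nothing in the labels names separate cultures. Other alternatives were total-count, DESeq2 and upper-quartile scaling, 1 CPM added, 1.5-fold, 100 counts, no filter and libraries left out. The 9 genes and the 18 lists were chosen with earlier results of these data known. Named from each list were at most 4 genes at least 2-fold with the drug and with at least 100 counts, and a few the counts turn on. Named after their values were seen were Max, Cebpe, Gfi1 and Gata6. The 3 nearest genes were computed for each of the 9, and some named by these rules are not reported here.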

Additional observations from a re-analysis of the deposited data

Results flagged for a closer look

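Some ratios had opposite signs in 2 groups beyond counting error. With 1 library per condition these differences were not tested. For Maf, the ratio of regorafenib to control was 0.72 in M0 and −0.28 in M1, a difference of 1.0, and −0.23 in M2, a difference from M0 of 0.95. For Spi1, the ratio was 0.17 in M0 and −0.11 in M2, a difference of 0.28; scaled by total counts the M2 ratio was −0.03. For Spi1 the ratio of M1 to M0 was 0.07 without the drug and −0.13 under regorafenib, a difference of 0.2; scaled by total counts both were negative (−0.37 and −0.54). All these ratios are under 2-fold.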

How the results depend on the processing

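With 1 library per condition no spread between replicates was measured, and the fits across states assume that the lone libraries vary alike. At 1.5-fold, 2 of the 9 genes were called with regorafenib in M1 (0 at 2-fold) and 3 in M2 (1 at 2-fold). For the change common to the 3 states, edgeR called 0 genes, DESeq2 296, edgeR without a filter on low counts 333, and leaving out a pair of libraries gave 0 to 386, the last without the M1 pair. Leaving out only the M1 control gave 726 and only M1 regorafenib 814. For M2 against M0 in both treatments, edgeR called 28 genes, DESeq2 413, no filter 408, and leaving out 1 library gave 77 to 294 (99 without the M0 control, 294 without M0 regorafenib, 77 without the M2 control and 78 without M2 regorafenib), and 248 without the M1 control, 264 without M1 regorafenib and 100 without the M1 pair. The cause was not tested. DESeq2 and no filter also called Cebpa (1.16 and 1.15), Cebpd (−1.6 and −1.61) and Maf (−1.15 and −1.16) in M2. The drug effect common to the states changed sign without the M0 pair for Spi1 (−0.05, from 0.02; up to 0.08 over the pairs left out) and Maf (−0.24, from 0.08; up to 0.27). The Spi1 difference of M1 from M0 (0.03) changed sign without a filter (−0.03) and without the M0 control (−0.09; up to 0.15 over the libraries left out). By total counts the share higher of all genes called went from 47.3% to 29.3% for M1 against M0, from 48% to 33.6% for M1 against M2 and from 44.2% to 27.7% for M1 against M0 under regorafenib. Over all genes, 1 CPM added gave 1495 calls in M0, 154 in M1 and 565 in M2 (2596, 518 and 1322 without), and 1.5-fold gave 4732, 1102 and 2805. A minimum of 100 counts gave 245 in M1 and 812 in M2. For M2 against M0 these settings gave 780, 2638 and 997 (1519 as reported), and under regorafenib 451, 2210 and 642 (1130). The fit across states already pairs control and drug libraries within a state. No paired analysis by replicate number was possible because the labels carry none.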
